A study of Homo sapiens with 6 samples.

Results

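FSP1 (encoded by AIFM2), GCH1 and DHODH restrain lipid peroxidation by routes that do not use the glutathione peroxidase GPX4, and their genes are described here together with those of the cofactors they depend on. The 9 genes were taken by name, for the function of their products, by a rule that uses no measured value, although earlier results of these data were known when they were chosen. They are AIFM2, GCH1, GCHFR, PTS, SPR, QDPR, DHODH, COQ2 and PDSS2, out of 62710 gene identifiers measured. RNA was sequenced from HT1080 cells, an established human fibrosarcoma line, in 6 libraries. A group of 3 libraries came from untreated cells and the other 3 from cells given 20 ng/mL IFNβ for 24 h, with no other treatment or genetic change named for either group. The labels name human IFNβ, as do the study's culture methods for every line but 4T1, while its sequencing methods name mouse IFNβ. All results come from 1 cell line, and the labels do not say whether the libraries of a group came from separate cultures. The study's methods state in general that in vitro results came from independent biological replicates, without naming the libraries, so p-values measure the spread between these libraries, which may be in part technical.

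Ferroptosis is cell death driven by iron-dependent peroxidation of membrane lipids. FSP1 is a myristoylated oxidoreductase that uses NAD(P)H to reduce ubiquinone and vitamin K outside mitochondria to forms that trap lipid radicals. GCH1 is the rate-limiting enzyme of tetrahydrobiopterin (BH4) synthesis. BH4 is itself a radical-trapping antioxidant and is the cofactor of nitric oxide synthases and aromatic amino acid hydroxylases. DHODH, an enzyme of the inner mitochondrial membrane, passes electrons from dihydroorotate to ubiquinone during pyrimidine synthesis. COQ2 and PDSS2 act in the making of ubiquinone, the electron carrier on which FSP1 and DHODH both draw.

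Expression was given as FPKM, a fragment count corrected for the length of the gene and the depth of the library. Values of a gene can be compared between libraries, while comparison between genes also rests on the gene lengths used. The fragments behind these values were recovered from the values, and the libraries had been divided by 22848104 to 32915500 fragments. Each of the members other than GCHFR had between 274 and 1298 fragments in every library, and GCHFR had between 3 and 13. The groups were tested against each other with limma on log2(FPKM + 0.1), and p-values were adjusted by the Benjamini-Hochberg method over the 20716 genes with a mean of at least 0.1 FPKM. Because of the added 0.1, fold changes of genes at low levels come out too small. All 9 genes were among those tested. A gene is said to have risen or fallen where its adjusted p-value was under 0.05. With 3 libraries against 3, exact permutation for a gene taken alone cannot give a p-value below 0.1, so these calls rest on the spread that limma shares between genes.

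The libraries fitted their labels. The mesenchymal genes VIM and FN1 stood at 399 ± 23.9 and 88.4 ± 3.99 FPKM (mean ± S.D., n = 3) in untreated cells and at 325 ± 7.45 and 126 ± 4.56 FPKM after IFNβ. EPCAM and CDH1 of epithelium, PTPRC and CD3E of leukocytes and HBB of erythroid cells reached at most 0.0571 FPKM in any library, and the endothelial gene PECAM1 had 0.188 to 0.327 FPKM. All 6 interferon-response genes checked rose at least 2-fold. IFIT1 went from 0.916 ± 0.0380 to 413 ± 3.30 FPKM (limma, adjusted p = 5.2e-10). The antiviral gene MX1 went from 0.243 ± 0.0575 to 70.6 ± 1.21 FPKM (limma, adjusted p = 1.2e-07). As these are bulk libraries, fewer cells expressing a gene and less RNA of it per cell cannot be told apart.

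The DNA just upstream of the start sites is shown for AIFM2, which rose, for SPR, the member that fell most, and for GCHFR, which shares a motif with AIFM2. The sequences are the 250 bases before the RefSeq start site, read 5′ to 3′ on the strand of the gene (GRCh38.p14, chr10:70132826-70133075 on the minus strand for AIFM2, chr15:40763818-40764067 on the plus strand for GCHFR, and chr2:72887158-72887407 on the plus strand for SPR). Each window reaches into the gene as GENCODE 29 draws it, since GENCODE starts the gene further upstream. The matches marked in AIFM2 and GCHFR lie in that part. Capitals mark the match to the core of the antioxidant response element, the site that NRF2 binds.
AIFM2: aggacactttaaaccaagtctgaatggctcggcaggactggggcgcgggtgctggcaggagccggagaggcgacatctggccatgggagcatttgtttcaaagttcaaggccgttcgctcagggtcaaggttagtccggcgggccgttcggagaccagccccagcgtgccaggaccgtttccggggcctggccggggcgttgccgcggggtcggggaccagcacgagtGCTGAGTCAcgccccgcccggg
GCHFR: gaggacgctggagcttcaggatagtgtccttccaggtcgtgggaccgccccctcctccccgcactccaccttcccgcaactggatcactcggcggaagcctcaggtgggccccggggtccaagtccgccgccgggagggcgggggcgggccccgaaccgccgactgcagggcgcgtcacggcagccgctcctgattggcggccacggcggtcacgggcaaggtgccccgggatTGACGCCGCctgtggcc
SPR: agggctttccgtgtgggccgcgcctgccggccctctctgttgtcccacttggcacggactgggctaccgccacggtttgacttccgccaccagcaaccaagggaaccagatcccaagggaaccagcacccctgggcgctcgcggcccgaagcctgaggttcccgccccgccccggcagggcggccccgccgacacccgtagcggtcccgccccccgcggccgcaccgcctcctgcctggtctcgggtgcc

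A RefSeq promoter was matched for 8 of the 9 genes, all but GCH1. A window from 250 bases before to 50 bases after the start was searched on both strands for 3 motifs. The core of the interferon-stimulated response element (ISRE), written GAAANNGAAA or TTTCNNTTTC on the other strand, is in 3.57% of the 35116 RefSeq promoters. The interferon gamma-activated site TTCNNNGAA, a palindrome, is in 7.66%, and the antioxidant response element core TGACNNNGC or GCNNNGTCA is in 13.3%. Neither interferon motif was found in the windows of the 8 genes. The antioxidant response element core was found in AIFM2, as GCTGAGTCA from 22 to 14 bases before the start, and in GCHFR, as TGACGCCGC from 17 to 9 bases before it. A match describes the letters only.

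After IFNβ, AIFM2 and GCH1 rose and SPR, DHODH, COQ2 and PDSS2 fell, while GCHFR, PTS and QDPR did not pass the test. These 6 of 9 compare with 32.7% of all genes tested, and with 49.4% of the 11996 genes whose mean was at least 1 FPKM, as it was for all members but GCHFR. Rises were found for 2 members (15.2% of all genes) and falls for 4 (17.5%). Where only genes with a mean of at least 1 FPKM were tested, both shares were larger and more genes fell than rose. The median log2 fold change of those genes was -0.03. Among the members only GCH1 passed and changed at least 2-fold, as did 4.22% of the genes tested. By that much, 3.49% rose and 0.739% fell. The untreated and IFNβ-treated libraries did not overlap for the same 6 members, and did not overlap for 46.6% of all genes. The median log2 fold change was -0.01 over the members and 0.00 over all genes. The plot of FPKM by library shows how far apart the groups lay, and the plot of fold changes sets their sizes side by side.

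**Figure D1:**
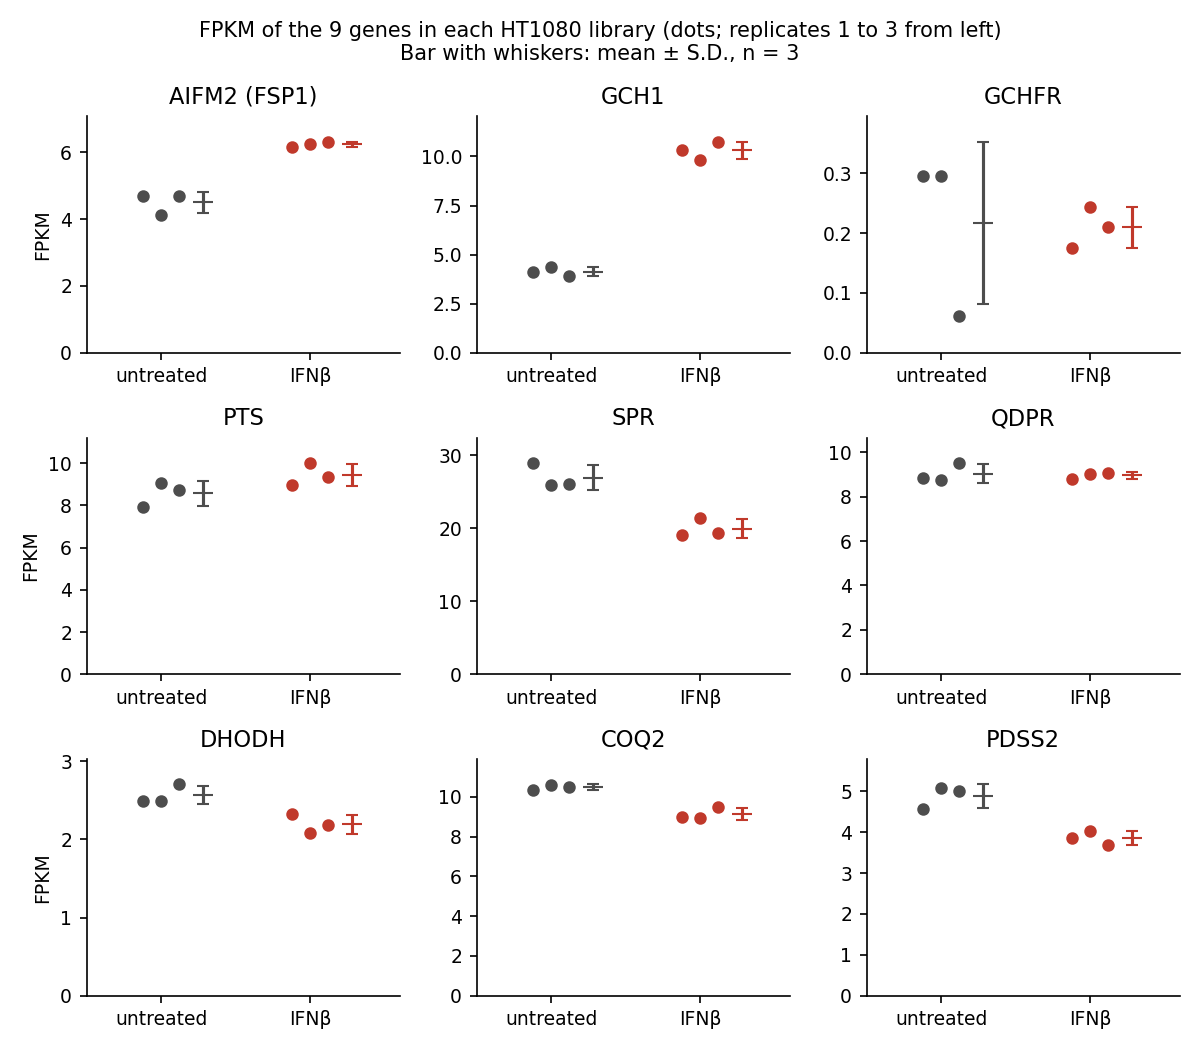
FPKM of the 9 genes in the 3 untreated and the 3 IFNβ-treated HT1080 libraries, 1 panel per gene with its own axis from 0. Points are libraries and the bars beside them are the mean ± S.D. (n = 3). GCH1 rose from about 4.14 to 10.3 FPKM, and the 3 IFNβ points of AIFM2 all lie above its untreated points, whereas those of SPR, DHODH, COQ2 and PDSS2 all lie below.

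**Figure D2:**
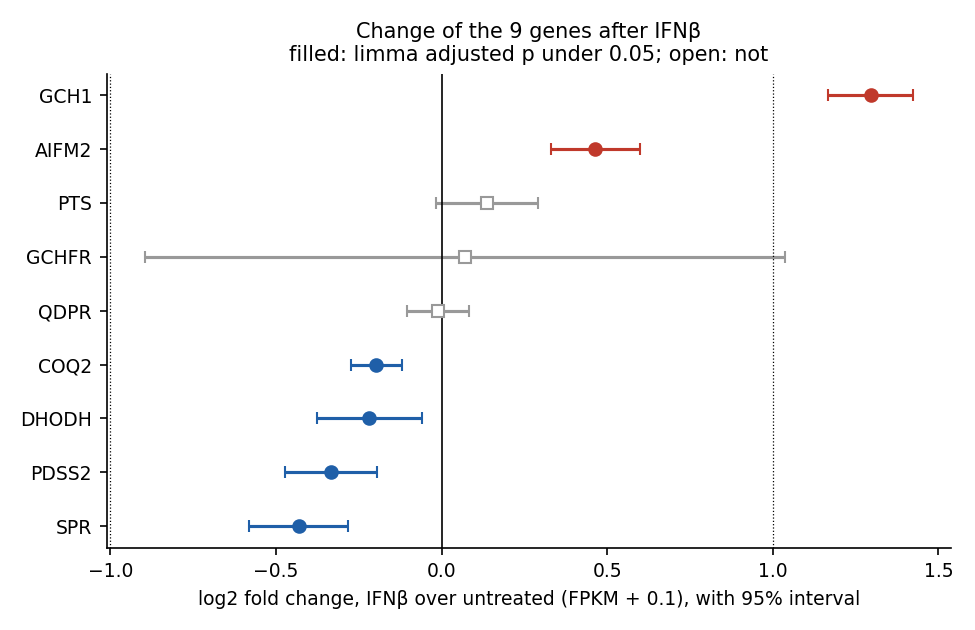
Log2 fold change of each gene, IFNβ-treated over untreated on log2(FPKM + 0.1), with its 95% confidence interval from limma. GCH1 lies past a log2 fold change of 1, and the interval of GCHFR, from -0.90 to 1.04, is the widest of the 9.

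AIFM2, the gene of FSP1, lies at chr10:70098223-70132934 on the minus strand (GENCODE 29, GRCh38) and is protein-coding with 11 merged exon blocks (ENSG00000042286). The untreated libraries had 4.69, 4.13 and 4.68 FPKM and the IFNβ-treated libraries had 6.16, 6.24 and 6.32 FPKM. Every treated library was above every untreated one, and the treated libraries lay within a narrow range. The mean rose 1.39-fold, from 4.50 ± 0.317 to 6.24 ± 0.0778 FPKM (S.D., n = 3). The log2 fold change was 0.46 with an SE of 0.06 and a 95% interval from 0.33 to 0.60 (limma, adjusted p = 0.0012).

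GCH1 opens BH4 synthesis by converting GTP to dihydroneopterin triphosphate. The gene is at chr14:54842008-54902852 on the minus strand, with 6 exon blocks (ENSG00000131979). Its FPKM were 4.10, 4.39 and 3.94 without IFNβ and 10.3, 9.84 and 10.7 with it. The lowest treated library was well above the highest untreated one. The mean went from 4.14 ± 0.230 to 10.3 ± 0.448 FPKM, a 2.49-fold rise. Its log2 fold change of 1.30 (SE 0.05, 95% interval 1.17 to 1.42) ranked 957 by size among the genes tested (limma, adjusted p = 1.3e-05).

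GCHFR encodes the feedback regulatory protein that binds GCH1 and mediates its inhibition by BH4. It lies at chr15:40764020-40767710 on the plus strand (ENSG00000137880). It was near the lower limit of the data, with 0.296, 0.296 and 0.0615 FPKM in untreated libraries (10, 13 and 3 fragments) and 0.175, 0.243 and 0.210 FPKM in treated ones (8, 9 and 9 fragments). The groups overlapped, and the lowest and the highest values were both untreated. The log2 fold change was 0.07 with a 95% interval from -0.90 to 1.04 (limma, adjusted p = 0.92), while the ratio of the means was 0.963, on the other side of no change. The interval reaches about 2-fold in either direction, so a smaller change was not detectable at this depth. In addition, 1151 bp of its exons (75.2%) overlap exons of DNAJC17 on the opposite strand, a gene at 1.87 and 1.82 FPKM, and whether the counting used strand is not given in the sources used here.

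The middle step of BH4 synthesis is carried out by 6-pyruvoyltetrahydropterin synthase, PTS (chr11:112226365-112269955, plus strand, ENSG00000150787). Its FPKM were 7.91, 9.07 and 8.75 in untreated libraries and 8.95, 10.0 and 9.34 in treated ones. The groups overlapped, since untreated replicate 2 was above treated replicate 1. With means of 8.58 ± 0.602 and 9.43 ± 0.535 FPKM, the log2 fold change was 0.14 (95% interval -0.02 to 0.29) and did not pass the test (limma, adjusted p = 0.16). PTS shares 177 bp of its exons with the pseudogene RPS6P16 on the opposite strand, and AIFM2 shares 11 bp with H2AFY2.

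SPR, sepiapterin reductase, completes BH4 and was the most expressed of the 9 genes (chr2:72887360-72892158, plus strand, ENSG00000116096). It had 28.9, 25.9 and 26.0 FPKM without IFNβ and 19.0, 21.4 and 19.4 FPKM with it. All treated libraries lay below all untreated libraries. The mean fell from 27 ± 1.72 to 20.0 ± 1.30 FPKM, with a log2 fold change of -0.43 (SE 0.06, 95% interval -0.58 to -0.28) and a limma adjusted p of 0.0025. SPR moved in the opposite direction to GCH1 within the same short pathway.

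QDPR, which returns quinonoid dihydrobiopterin to BH4 after use, had 8.86, 8.75 and 9.52 FPKM in untreated libraries and 8.80, 9.0 and 9.09 FPKM in treated libraries (chr4:17460261-17512234, minus strand, ENSG00000151552). The treated values lay inside the untreated range. The log2 fold change was -0.01 with a 95% interval from -0.11 to 0.08 (limma, adjusted p = 0.86).

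DHODH is at chr16:72008588-72027664 on the plus strand (ENSG00000102967). Its untreated libraries had 2.50, 2.50 and 2.70 FPKM, and its treated libraries had 2.32, 2.08 and 2.18 FPKM. The groups were separate but close, 2.32 against 2.50 FPKM at their nearest. The mean fell from 2.57 ± 0.119 to 2.19 ± 0.124 FPKM with a log2 fold change of -0.22 (SE 0.07, 95% interval -0.38 to -0.06). The limma adjusted p was 0.045, just under the threshold, and was under it in 6 of 16 alternative settings, between 0.0142 and 0.131. Leaving out any untreated library, or treated replicate 2 or 3, ended the call (adjusted p between 0.0766 and 0.131).

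Ubiquinone has a benzoquinone ring and a long isoprenoid tail. PDSS2 is a subunit of the synthase that builds the tail, and COQ2 joins the tail to the ring precursor. PDSS2 (chr6:107152557-107459564, minus strand, ENSG00000164494) had 4.57, 5.09 and 5.01 FPKM in untreated libraries and 3.85, 4.02 and 3.69 FPKM in treated ones. COQ2 (chr4:83261536-83284914, minus strand, ENSG00000173085) had 10.3, 10.6 and 10.5 FPKM in untreated libraries and 8.97, 8.95 and 9.47 FPKM in treated ones. In both genes all treated libraries were below all untreated ones. The PDSS2 mean fell from 4.89 ± 0.283 to 3.85 ± 0.166 FPKM, a log2 fold change of -0.33 with an SE of 0.06 and a 95% interval from -0.47 to -0.20 (limma, adjusted p = 0.0054). The smaller change of COQ2, from 10.5 ± 0.146 to 9.13 ± 0.296 FPKM, had a log2 fold change of -0.20 with an SE of 0.03 and a 95% interval from -0.27 to -0.12 (limma, adjusted p = 0.0042).

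The order of the levels in FPKM differed between the groups, and it rests on the gene lengths behind the FPKM. Of the genes with fragments, 46.2% had the same length as in GENCODE. The length implied for QDPR was 4144 bp, against 3059 bp for its GENCODE exons, and the other members differed by less. With the shorter length QDPR would stand higher in both groups. Its rank and those of its neighbours, GCH1 after IFNβ included, may therefore differ. In untreated cells the order was SPR, COQ2, QDPR, PTS, PDSS2, AIFM2, GCH1, DHODH and GCHFR, from the highest mean to the lowest. The libraries of QDPR and PTS, of PDSS2 and AIFM2, and of AIFM2 and GCH1 overlapped, so these neighbours were not separated by their spread. In IFNβ-treated cells the order was SPR, GCH1, PTS, COQ2, QDPR, AIFM2, PDSS2, DHODH and GCHFR. GCH1 moved from rank 7 to rank 2, where its libraries overlapped those of PTS, and the libraries of PTS and COQ2 and of COQ2 and QDPR also overlapped. AIFM2 passed PDSS2, and the libraries of this pair were separate after IFNβ. The plot of levels by rank shows these crossings.

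**Figure D3:**
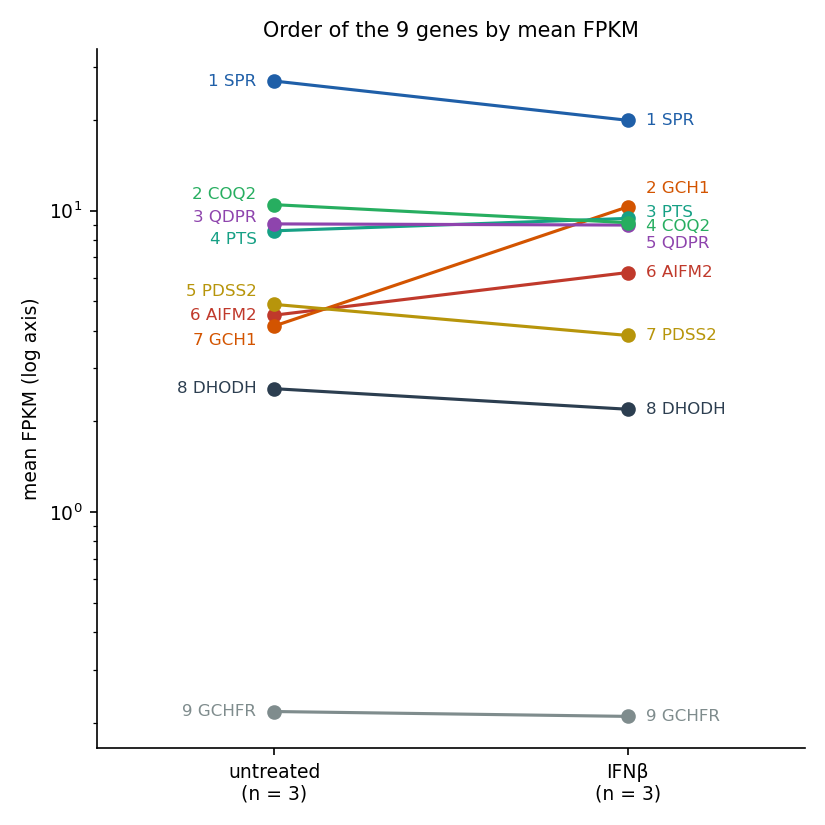
Mean FPKM (n = 3, log axis, no error bars) of the 9 genes in untreated and IFNβ-treated HT1080 cells, joined by gene. The line of GCH1 climbs from 4.14 to 10.3 FPKM across those of AIFM2, PDSS2, PTS, QDPR and COQ2, while GCHFR stays near 0.21 FPKM.

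Ratios of FPKM within a library relate the level of a gene to that of another without reference to other libraries. The GCH1 to PTS ratio was 0.519, 0.484 and 0.450 in untreated libraries and 1.16, 0.983 and 1.15 in treated ones, so GCH1 went from less than PTS to about its level. The AIFM2 to GPX4 ratio was 0.132, 0.112 and 0.121 without IFNβ and 0.205, 0.197 and 0.198 with it. Both ratios were separate between the groups, and their means rose 2.26-fold and 1.65-fold, but an exact two-sided permutation test gave the smallest p it can give, 0.1 for each (0.2 after Benjamini-Hochberg adjustment over the 4 ratios). The DHODH to GPX4 ratio overlapped between groups, at 0.0705, 0.0676 and 0.070 against 0.0775, 0.0657 and 0.0685 (exact permutation p = 0.9, adjusted 0.9). The GCH1 to GCHFR ratio ranged from 13.9 to 64.0 untreated and from 40.4 to 59.0 treated (exact permutation p = 0.4, adjusted 0.533), and rests on the few GCHFR fragments.

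**Figure D4:**
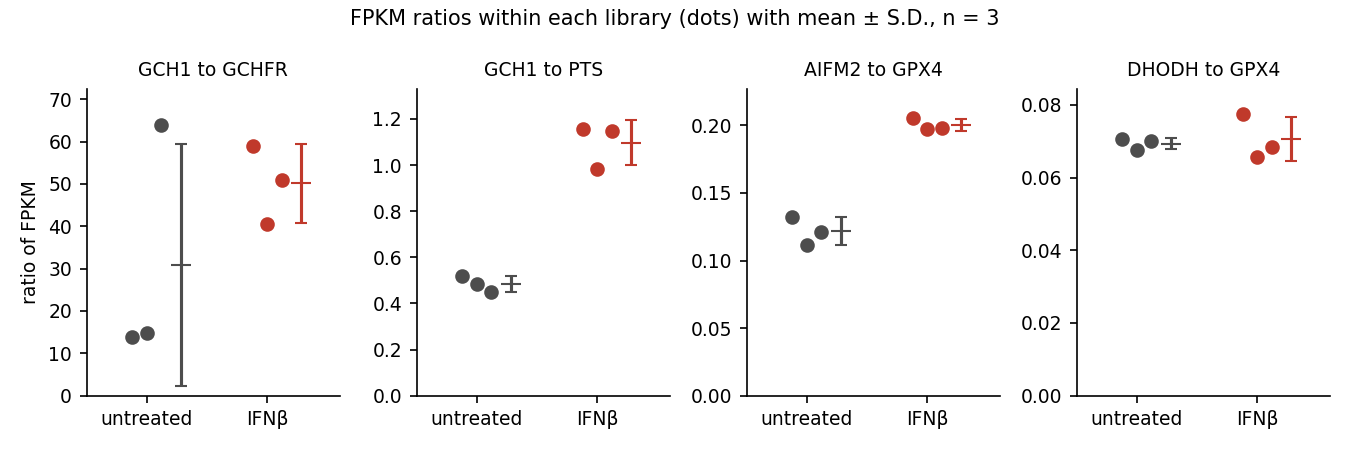
Ratio of the FPKM of a pair of genes in each untreated and IFNβ-treated library (points), with the mean ± S.D. (n = 3), in 4 panels with their own axes from 0. The groups are apart for GCH1 to PTS and for AIFM2 to GPX4, and overlap for GCH1 to GCHFR and for DHODH to GPX4.

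In the wider BH4 pathway, 3 of 11 genes rose, 3 fell and 5 did not pass the test, with a median log2 fold change of -0.01. Among all genes tested 32.7% passed, and among those with a mean of at least 1 FPKM 49.4% did. The carbonyl reductase CBR1 and the aldo-keto reductase AKR1C3, which can reduce BH4 intermediates in place of SPR, rose from 18.8 ± 0.879 to 31.1 ± 0.890 FPKM and from 2.11 ± 0.112 to 3.34 ± 0.221 FPKM (log2 fold changes 0.73 and 0.64, limma, adjusted p = 4.8e-05 and 0.00083). DHFR2 fell from 2.76 ± 0.205 to 2.17 ± 0.0523 FPKM (limma, adjusted p = 0.011). The dehydratases that act between a BH4-using enzyme and QDPR, PCBD1 and PCBD2, had log2 fold changes of -0.30 and -0.18 (limma, adjusted p = 0.12 and 0.21).

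Of 8 enzymes that need BH4, only NOS3 and TPH1 were expressed highly enough to be tested. The endothelial nitric oxide synthase NOS3 had 3.62, 3.49 and 3.36 FPKM without IFNβ and 3.19, 2.84 and 2.56 FPKM with it. The groups did not overlap, and its log2 fold change was -0.28 (limma, adjusted p = 0.045). That call held in 8 of 16 alternative settings, and was lost without any untreated library or without treated replicate 2 or 3 (adjusted p between 0.0778 and 0.121). TPH1, a tryptophan hydroxylase, had 0.276 ± 0.104 and 0.332 ± 0.0382 FPKM and did not pass (limma, adjusted p = 0.55). The other 6 had at most 0.0482 FPKM in any library.

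Of 13 genes of ubiquinone synthesis and its COQ10 carriers, 6 fell, 2 rose and 5 did not pass the test, and the median log2 fold change was -0.16. For comparison, 32.7% of all genes and 49.4% of those with a mean of at least 1 FPKM passed. These shares also apply to the counts of the lists that follow. They count rises and falls together, and falls outnumbered rises where only genes with that mean were tested. COQ3, a methyltransferase of the ring, fell most, from 10.5 ± 0.444 to 8.02 ± 0.569 FPKM (log2 fold change -0.39, limma, adjusted p = 0.0033). PDSS1, the partner subunit of PDSS2, fell by 0.18 on the log2 scale, from 18.3 ± 0.195 to 16.1 ± 0.773 FPKM (limma, adjusted p = 0.010). The methyltransferase COQ5 and the lipid-binding COQ9 fell by 0.20 and 0.16 on the log2 scale (limma, adjusted p = 0.012 for each). COQ10A and COQ10B, which bind ubiquinone rather than make it, were the members that rose, by 0.45 and 0.17 on the log2 scale, COQ10A from 3.16 ± 0.322 to 4.36 ± 0.0970 FPKM (limma, adjusted p = 0.0047 and 0.013).

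The isoprenoid tail comes from the mevalonate pathway, in which 2 of 8 genes rose and 2 fell, near the 49.4% that passed among all genes with a mean of at least 1 FPKM. HMGCS1 and IDI1 rose from 50.1 ± 1.65 to 61.9 ± 1.05 FPKM and from 41.5 ± 0.960 to 49.8 ± 0.645 FPKM (limma, adjusted p = 0.00043 and 0.00030). The kinases PMVK and MVK fell from 15.1 ± 0.655 to 11.2 ± 0.976 FPKM and from 5.74 ± 0.524 to 4.36 ± 0.448 FPKM (limma, adjusted p = 0.0038 and 0.021). MVK lost its call without untreated replicate 2 or treated replicate 1 or 3 (adjusted p between 0.0559 and 0.0647).

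A list of 8 genes held AIFM2, others that handle quinones or vitamin K outside mitochondria, and the myristoyltransferases NMT1 and NMT2. Of these 8, 3 rose and 2 fell. AIFM2 had the largest log2 fold change of the 8. NQO1, another quinone reductase, rose from 47.6 ± 2.66 to 58.1 ± 0.968 FPKM, and NMT1, one of the myristoyltransferases that attach the lipid by which FSP1 binds membranes, rose from 20.6 ± 0.313 to 24.1 ± 0.585 FPKM (limma, adjusted p = 0.0027 and 0.00088). STARD7, which carries ubiquinone out of mitochondria, fell from 23.0 ± 0.625 to 19.7 ± 0.305 FPKM, and the vitamin K epoxide reductase VKORC1L1 fell from 17.5 ± 0.502 to 13.5 ± 0.412 FPKM (limma, adjusted p = 0.0012 and 0.00037).

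DHODH shares pyrimidine synthesis with CAD, which acts before it, and UMPS, which acts after it. CAD fell from 25.2 ± 0.945 to 21.2 ± 0.157 FPKM (log2 fold change -0.24, limma, adjusted p = 0.0015), and UMPS had 15.5 ± 0.950 and 14.1 ± 0.121 FPKM (log2 fold change -0.13, limma, adjusted p = 0.065). DHODH is also among the genes of mitochondrial enzymes that hand electrons to ubiquinone, several of which encode subunits of 1 enzyme. Of these genes 5 fell and 1 rose among 8 tested of 10. Among all genes with a mean of at least 1 FPKM 49.4% passed. Between 4 and 7 of them passed under the alternative settings. The exception, sulfide quinone oxidoreductase SQOR, rose from 1.57 ± 0.418 to 2.93 ± 0.160 FPKM with a log2 fold change of 0.89 (limma, adjusted p = 0.012). The glycerol-3-phosphate dehydrogenase GPD2 fell by 0.25 on the log2 scale, and the succinate dehydrogenase subunits SDHB, SDHC and SDHD fell by 0.16, 0.18 and 0.20 (limma, adjusted p = 0.0019, 0.013, 0.029 and 0.0069). The subunit SDHA did not pass (log2 fold change -0.02, limma, adjusted p = 0.84). It has a copy, SDHAP4, at 3.62 to 4.09 FPKM, with which it may share reads. SDHC lost its call without any untreated library or without treated replicate 3 (adjusted p between 0.0508 and 0.0897). Without the trend in limma, SDHB and SDHC lost their calls (adjusted p = 0.054 and 0.081), as SDHC did with no filter (adjusted p = 0.051). SDHD has a copy, SDHDP6, at 2.75 to 4.29 FPKM, with which it may share reads.

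**Figure D5:**
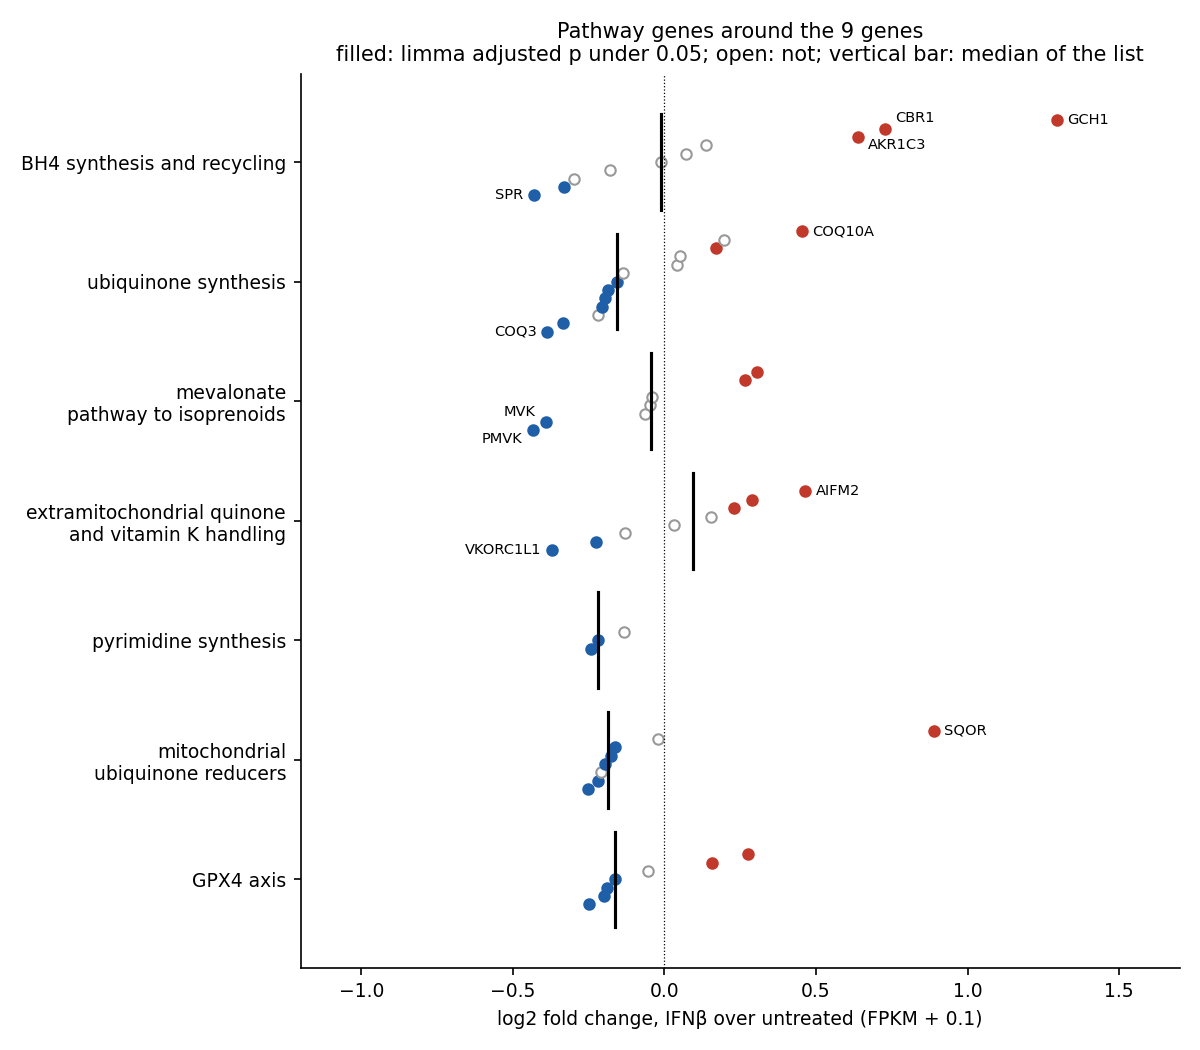
Log2 fold changes (IFNβ-treated over untreated, FPKM + 0.1) of tested genes of 7 pathway lists, 1 row per list. Each point is a gene, filled red where it rose and filled blue where it fell with a limma adjusted p under 0.05, and open where it did not pass, and the vertical bar is the median of the whole list, including the few tested genes that are not drawn. GCH1 at 1.30 is the only gene past 1 in these lists, and the points of the ubiquinone list lie mostly left of 0, around a median of -0.16.

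GPX4 itself fell from 37.0 ± 1.59 to 31.1 ± 1.00 FPKM (log2 fold change -0.25, limma, adjusted p = 0.0037), and of the 7 genes of its glutathione axis 2 rose and 4 fell, where 49.4% of all genes with a mean of at least 1 FPKM passed. The glutamate-cysteine ligase subunit GCLC and the cystine carrier chain SLC3A2 rose by 0.28 and 0.16 on the log2 scale, and GCLM, GSS and GSR, which act in glutathione synthesis and recycling, fell by 0.16, 0.20 and 0.19 (limma, adjusted p = 0.0042, 0.014, 0.0073, 0.0095 and 0.0060). The other cystine carrier chain of the list, SLC7A11, did not pass the test (log2 fold change -0.05, limma, adjusted p = 0.67). Without the trend in limma, SLC3A2 lost its call (adjusted p = 0.058). After IFNβ GPX4 was still above each of the 9 genes in FPKM.

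The genes most like GCH1 over the 6 libraries were NECTIN2, TRAFD1 and ENDOD1, by the Euclidean distance between centred log2(FPKM + 0.1) values, among 11995 genes with a mean of at least 1 FPKM. Their distances were 0.114, 0.122 and 0.125. NECTIN2 went from 33.1 to 80.9 FPKM, TRAFD1 from 6.72 to 17.0 FPKM and ENDOD1 from 18.7 to 44.2 FPKM, with log2 fold changes of 1.29, 1.32 and 1.24. These values were chosen for their likeness and are a description.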

How the data were processed

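RNA of 3 untreated and 3 IFNβ-treated HT1080 libraries had been enriched for mRNA and sequenced on the Illumina NovaSeq platform. The submitters' processing notes name fastp, HISAT2, StringTie and GRCh38, and the study's methods name DESeq2. The authors deposited 1 FPKM value per Ensembl gene and library, scaled by gene length and library fragments. The annotation, tool versions and strandedness are not given in the sources used here. Of 62710 identifiers, 42303 had a symbol of their own, and 4436 were not in GENCODE 29, so locations given here may differ from those used for counting.

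Whole fragments were recovered for 100% of the 35303 genes above 0 (tolerance 0.01 fragments), and 1 fragment in 1 kb was worth 0.0304 to 0.0438 FPKM. Within groups, libraries differed by more than counting error (chi-square per degree of freedom 1.78 to 3.38). The main test was limma 3.58.1 (R 4.3.3), lmFit and eBayes with trend on log2(FPKM + 0.1), unpaired, with a mean of at least 0.1 FPKM. FPKM are not counts, so DESeq2 was not run. The code was tested on simulated data.

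The members and gene lists were chosen with earlier results of these data known. Genes named were the 9 members, up to 6 genes per list past the threshold, GPX4, interferon-response genes and the 3 genes most like GCH1. Some genes that the rule covers are counted in their lists but not reported here. Marker genes and other genes given with values that did not pass were named in addition. Alternatives were pseudocounts of 1 and 0.01, no filter or a mean of at least 1 FPKM, equal totals, median ratio or quantile scaling, no trend, the replicate block, limma-voom on recovered fragments, and each library left out. Python 3.11.15 (pandas 2.3.3, numpy 2.4.6, matplotlib 3.10.9) was used for the rest. RefSeq promoters were of GRCh38.p14.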

Additional observations from a re-analysis of the deposited data

How the results depend on the processing

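AIFM2, GCH1, SPR, COQ2 and PDSS2 kept their direction and passed the limma threshold in all 16 alternative settings, with log2 fold changes of 0.40 to 0.49, 1.14 to 1.34, -0.48 to -0.38, -0.22 to -0.18 and -0.38 to -0.28. DHODH lost its call with a pseudocount of 1 (-0.16, limma adjusted p = 0.050), no filter (-0.22, 0.067), equal totals (-0.21, 0.055) and no trend (-0.22, 0.051), and gave -0.26 to -0.18 with 1 library left out. The pyrimidine list then had 1 gene passing in place of 2, and between 1 and 2 with 1 library left out. All 3 of its genes passed with quantile scaling and where only genes with a mean of at least 1 FPKM were tested. DHODH had limma adjusted p-values of 0.020 and 0.031 in these settings. NOS3 lost its call with no filter, equal totals and no trend, which left 0 of the 2 tested BH4-dependent enzymes, and 0 to 1 with 1 library left out. GCHFR changed sign with a pseudocount of 1 (-0.0036) and quantile scaling (-0.068), and ran from -0.36, without untreated replicate 3, to 0.29 with 1 library left out. QDPR changed sign with equal totals (0.00078) and ran from -0.035 to 0.025 with 1 library left out. The log2 difference of the DHODH to GPX4 ratio ran from -0.047, without treated replicate 1, to 0.071. The causes were not tested.

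Genes changed at least 2-fold numbered 722 higher and 153 lower, against 278 and 26 with a pseudocount of 1, and 365 and 60 where only genes with a mean of at least 1 FPKM were tested. The 5 other GPX4-independent enzymes that passed became 3 without trend, 8 with limma-voom on recovered fragments, and 3 to 5 with 1 library left out.

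Deviations of libraries with the same number had correlations of 0.053, -0.018 and 0.12, against -0.15 to 0.099 for libraries with unlike numbers. These few values do not settle whether the numbers mark pairs, and the main test did not take them as pairs. With the replicate number as a block, PTS passed (0.14, limma adjusted p = 0.038), DHODH did not (-0.22, 0.085), and 1 gene of the pyrimidine list passed. The block called 829 genes changed at least 2-fold, against 875.

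Of 736 values of 46 other named genes under the alternatives, 35 lost their call and 0 changed sign. GCHFR, at 3 to 13 fragments, is limited by depth.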

Other observations

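A list of 8 further enzymes linked to ferroptosis without GPX4 was put together after values of these data had been seen, so its counts are a description. Of these, 3 rose, 2 fell and 3 did not pass the limma test, with a median log2 fold change of 0.14. Among all genes 32.7% passed, and among those with a mean of at least 1 FPKM 49.4% did. The counts do not separate enzymes that restrain lipid peroxidation from others. PRDX6, a peroxiredoxin that reduces phospholipid hydroperoxides, rose from 100.1 ± 1.7 to 116 ± 1.21 FPKM, and POR, the cytochrome P450 reductase linked to lipid peroxidation, rose from 11.1 ± 0.149 to 13.1 ± 0.0194 FPKM (limma, adjusted p = 0.00036 and 0.00040). The lysophospholipid acyltransferases MBOAT1 and MBOAT2 moved in opposite directions. MBOAT2 fell from 7.57 ± 0.446 to 5.63 ± 0.219 FPKM (log2 fold change -0.42, limma, adjusted p = 0.0015). MBOAT1 rose from 2.60 ± 0.260 to 3.11 ± 0.0886 FPKM (log2 fold change 0.25, limma, adjusted p = 0.048), a call that held in 5 of 16 alternative settings and was lost without any library but untreated replicate 1 (adjusted p between 0.0853 and 0.130). SC5D, which makes 7-dehydrocholesterol, fell from 7.10 ± 0.155 to 6.25 ± 0.324 FPKM (limma, adjusted p = 0.024), a call lost without untreated replicate 1 or 3 (adjusted p = 0.071 and 0.073). DHCR7, which consumes it, had a log2 fold change of -0.10 (limma, adjusted p = 0.065).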
